A study of Mus musculus with 12 samples.

Results

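RNA from whole mouse kidneys at stage E18.5 was sequenced in 6 of the 12 samples of the series, 3 wild type (replicates 30, 37 and 55) and 3 mutants (replicates 24, 27 and 29) that carry mutations in both the HoxA and the HoxC cluster. All 6 came from 1 sequencing run, and the comparison was chosen because it sets the animals with the most mutated genes against animals with none. The labels give the mutants as homozygous for Hoxa9, Hoxa10, Hoxa11, Hoxc9, Hoxc10 and Hoxc11, on a mixed background. The study, however, found no kidneys at E18.5 in embryos of that genotype. For its RNA sequencing it describes kidney-bearing mutants that kept 1 or both wild type Hoxa11 alleles, without saying which kidney kept which. The genotype is therefore given here only as the labels have it, and for Hoxa11 the study's text contradicts it. The alleles shift the reading frame and need not remove the transcript, and whole organs of 1 stage show 1 time point of development, not its course.

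The libraries held 37190058, 42353534 and 39304131 reads in wild type 30, 37 and 55 and 39352884, 40151347 and 36951252 reads in mutants 24, 27 and 29. Levels are read counts scaled to library size (CPM) with TMM factors, and values of single samples always follow that order. Of 36186 genes, 19619 had a read and 15839 were tested. The first principal component held 58.5% of the variance and the second 14.1%. Pearson correlations of the libraries across genes were 0.984 to 0.991 within wild type, 0.984 to 0.986 within mutants and 0.959 to 0.978 between the groups.

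A gene is called where the adjusted p of edgeR's quasi-likelihood test is under 0.05. Of the tested genes 13.7% were called, 6.31% higher and 7.40% lower in mutants, and the median log2 fold change of all genes was -0.01. In each called gene all 3 mutants lay on the same side of all 3 wild type kidneys, which held for 38.1% of all tested genes. The total depended on single samples: it was 793 without mutant 24, 1101 without mutant 27, 3386 without wild type 30, 535 without wild type 37 and 633 without wild type 55. Counts below are therefore mostly of genes called in the fit of 6 samples and in each of the 6 fits without 1 sample, written as called in every fit. That phrase covers those 7 fits only. It applied to 475 genes, 3.00% of those tested, with 242 (1.53%) higher and 233 (1.47%) lower. Xist, which was above the count filter in too few samples to be tested, was at 0.0796, 0.138 and 0.0495 CPM in wild type and 0.104, 72.6 and 60.1 CPM in mutants, and Ddx3y of the Y chromosome was at 93.7, 85.0 and 90.7 CPM in wild type and 82.0, 0 and 0.0824 CPM in mutants. Sex was therefore not balanced between the groups, and mutant 24 is the mutant with the male pattern (Ddx3y was called only without it, at an adjusted p of 0.0001). Fits of 9 libraries, which add 3 kidneys of the same run that are homozygous for the HoxA and heterozygous for the HoxC mutations, were made without and with Xist as a covariate. Genes that lose their call there are given with each result.

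**Figure D1:**
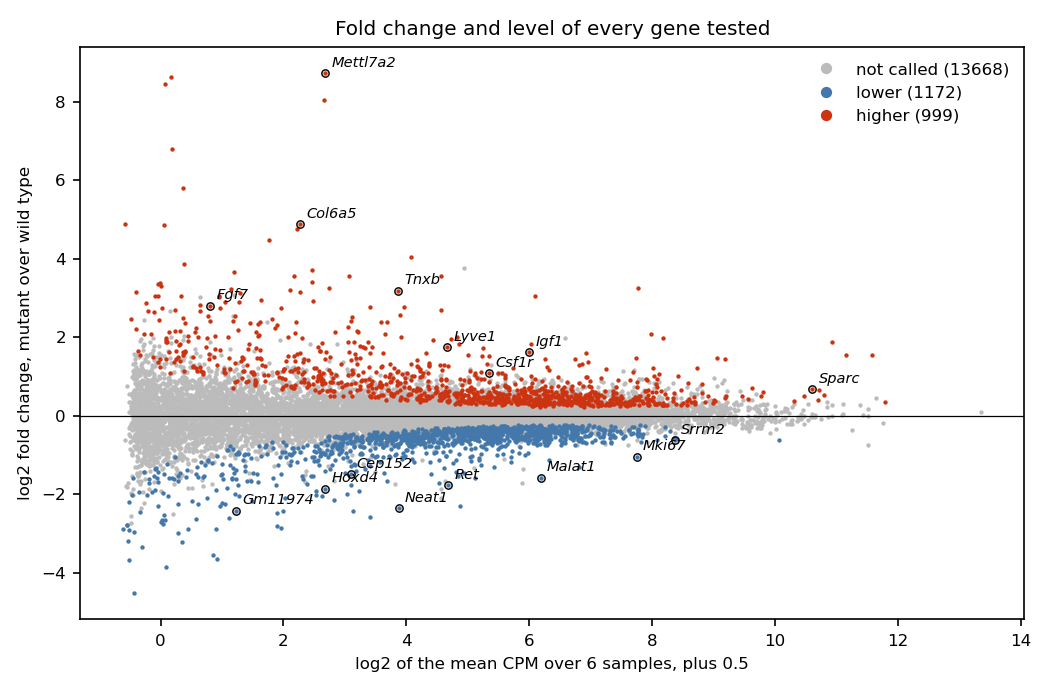
Log2 fold change of mutants over wild type (vertical) against the log2 of the mean CPM over the 6 samples plus 0.5 (horizontal) for each of the 15839 tested genes. Called genes are coloured, 999 above and 1172 below 0.

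Hox genes encode transcription factors whose order along each cluster follows their order of use along the body axis, and the paralogues numbered 9 to 11 act in the posterior trunk, where the kidney arises. The kidney forms when the ureteric bud, an epithelial tube, grows into the metanephric mesenchyme. Signals from the mesenchyme make the bud branch, and signals from the bud tips keep nephron progenitors dividing or turn them into nephron epithelium. Around both lies the stroma, from which fibroblasts and vessel wall cells derive.

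The genes that the labels give as mutated were still transcribed. Hoxa9 was at 24.4, 24.3 and 26.4 CPM in wild type and 26.5, 25.9 and 23.95 CPM in mutants and Hoxa11 at 44.2, 52.7 and 59.7 CPM in wild type and 37.1, 38.2 and 52.9 CPM in mutants, with log2 fold changes of 0.02 and -0.29 that were not called (adjusted p = 0.879 and 0.252). Hoxa10 was at 125, 152 and 165 CPM in wild type and 100.2, 104 and 112 CPM in mutants (log2 fold change -0.49, adjusted p = 0.027), a call lost in several fits (adjusted p = 0.0942 without mutant 24, 0.0736 without mutant 27, 0.108 without wild type 37 and 0.0904 without wild type 55, and as low as 0.00781 in the other fits without 1 sample). Hoxc9 was at 11.4, 11.7 and 15.6 CPM in wild type and 11.0, 10.5 and 10.4 CPM in mutants and was not called (log2 fold change -0.27, adjusted p = 0.23). Hoxc10 had the lowest adjusted p of the 6, at 50.2, 58.8 and 66.9 CPM in wild type and 37.8, 29.1 and 35.8 CPM in mutants (log2 fold change -0.78, adjusted p = 0.0127; adjusted p = 0.0583 without wild type 37, and as low as 0.00875 in the other fits without 1 sample). Hoxc11 was the rarest of the 6, at 1.57, 1.59 and 1.83 CPM in wild type and 1.04, 0.892 and 1.24 CPM in mutants and was not called (log2 fold change -0.65, adjusted p = 0.103). A frameshift leaves transcript level free to change or not, so these levels neither prove nor disprove a label. Hoxa10 (adjusted p = 0.306) and Hoxc10 (adjusted p = 0.669) lost their calls with 9 libraries and Xist as a covariate. Hoxa10 (adjusted p = 0.145) and Hoxc10 (adjusted p = 0.292) were not called with 9 libraries alone.

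None of the unmutated HoxD paralogues of the same groups was called. Hoxd9 was at 72.4, 82.9 and 89.4 CPM in wild type and 80.7, 95.4 and 86.0 CPM in mutants, Hoxd10 at 45.6, 49.4 and 56.4 CPM in wild type and 44.7, 58.0 and 46.5 CPM in mutants and Hoxd11 at 32.5, 37.1 and 40.7 CPM in wild type and 32.6, 33.9 and 31.6 CPM in mutants (adjusted p = 0.516, 0.927 and 0.264). Of the other Hox genes, 3 anterior members of intact clusters were lower. Hoxd3 was at 15.7, 18.2 and 22.4 CPM in wild type and 5.59, 5.73 and 6.43 CPM in mutants (log2 fold change -1.67, adjusted p = 0.00176) and its neighbour Hoxd4 at 7.72, 9.23 and 10.9 CPM in wild type and 2.32, 2.27 and 3.08 CPM in mutants (log2 fold change -1.86, adjusted p = 0.00288). Hoxb3, which like Hoxd3 belongs to the third paralogue group, was at 49.5, 59.0 and 66.9 CPM in wild type and 29.2, 31.3 and 27.3 CPM in mutants (log2 fold change -1.0, adjusted p = 0.00415). These 3 of 23 other tested Hox genes were called lower in every fit. In the mutated clusters Hoxa3 was called lower (log2 fold change -0.56, adjusted p = 0.0248; adjusted p = 0.0843 without mutant 24, 0.0586 without mutant 29, 0.105 without wild type 37 and 0.0966 without wild type 55, and as low as 0.0164 in the other fits without 1 sample) and Hoxc8 higher (log2 fold change 0.73, adjusted p = 0.027; adjusted p = 0.0851 without mutant 24, 0.0654 without mutant 27, 0.0507 without mutant 29 and 0.103 without wild type 37, and as low as 0.0271 in the other fits without 1 sample). Hoxc5 was also called higher (log2 fold change 0.77, adjusted p = 0.0457), but in no fit without 1 sample (adjusted p = 0.13 without mutant 24, 0.0533 without mutant 27, 0.0626 without mutant 29, 0.0693 without wild type 30, 0.114 without wild type 37 and 0.137 without wild type 55). Hoxa3 (adjusted p = 0.109), Hoxb3 (adjusted p = 0.0661) and Hoxc8 (adjusted p = 0.0518) lost their calls with 9 libraries and Xist as a covariate. Hoxa3 (adjusted p = 0.056), Hoxc5 (adjusted p = 0.433) and Hoxc8 (adjusted p = 0.341) were not called with 9 libraries alone.

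**Figure D2:**
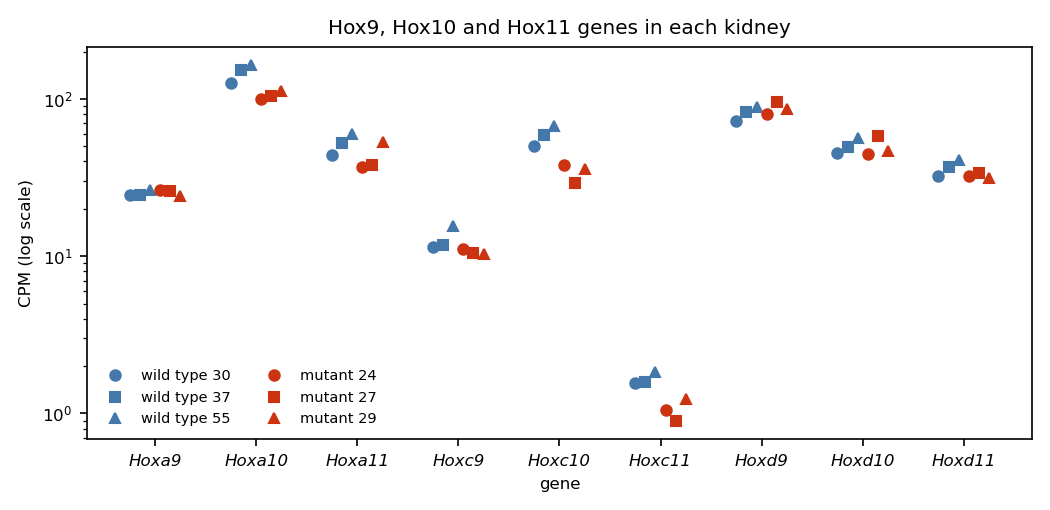
CPM (vertical, log scale) of the Hox9, Hox10 and Hox11 genes in each of the 6 kidneys, 1 point per kidney. Hoxc10 is lower in all 3 mutants, while Hoxa9 shows no gap between the groups.

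Some genes of nephron-forming tissue were lower. Of 16 genes that mark nephron progenitors, 7 were called lower (median log2 fold change -0.85), a count that was 2 without mutant 24, 3 without mutant 27, 11 without mutant 29, 1 without wild type 37 and 2 without wild type 55. The summed level of the list was 806, 938 and 1010 CPM in wild type and 506, 392 and 739 CPM in mutants. Gdnf, the mesenchymal ligand that drives branching of the bud, was at 29.8, 35.2 and 39.8 CPM in wild type and 10.6, 6.29 and 14.8 CPM in mutants (log2 fold change -1.73, adjusted p = 0.01005). Six2, the first gene of the list, was at 67.2, 83.9 and 105 CPM in wild type and 27.9, 13.2 and 58.4 CPM in mutants and was not called (log2 fold change -1.37, adjusted p = 0.0868). In whole kidneys a lower level can come from fewer cells of a type or from less RNA in each cell, and the data do not tell these apart. Sall1, a zinc-finger factor that keeps progenitors from differentiating, had means of 198 ± 17.8 CPM in wild type and 124 ± 28.9 CPM in mutants (SD, n = 3 each; log2 fold change -0.68, adjusted p = 0.0368; adjusted p = 0.0885 without mutant 24, 0.103 without wild type 37 and 0.123 without wild type 55, and as low as 0.0288 in the other fits without 1 sample). Gdnf and Six2 are also on the study's own list. Gdnf (adjusted p = 0.0959) and Sall1 (adjusted p = 0.119) lost their calls with 9 libraries and Xist as a covariate. Sall1 (adjusted p = 0.0598) was not called with 9 libraries alone.

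Several genes of the bud tip were lower as well. Ret, the receptor for Gdnf on tip cells, was at 36.5, 39.0 and 41.1 CPM in wild type and 9.58, 7.36 and 17.3 CPM in mutants (log2 fold change -1.77, adjusted p = 0.00958), and the lowest mutant for both genes was mutant 27. Wnt11, which tips express in response to Ret, was at 38.6, 53.2 and 53.6 CPM in wild type and 18.7, 22.4 and 28.2 CPM in mutants (log2 fold change -1.07, adjusted p = 0.0114; adjusted p = 0.0555 without wild type 37, and as low as 0.00785 in the other fits without 1 sample). Gata3, a transcription factor of the ureteric lineage that lies upstream of Ret, was at 68.0, 77.3 and 83.6 CPM in wild type and 44.4, 46.3 and 54.8 CPM in mutants (log2 fold change -0.65, adjusted p = 0.0114; adjusted p = 0.0586 without wild type 37, and as low as 0.00915 in the other fits without 1 sample). Of the 11 listed tip markers, which include Ret and Wnt11 but not Gata3, 6 were called lower (median -0.65), a count that was 2 without mutant 24 and 1 without wild type 37. Gata3 is from the list of collecting duct principal cells, which had a median of -0.12. Gdnf and Wnt11 are also on the study's own list. Gata3 (adjusted p = 0.129), Gdnf (adjusted p = 0.0959) and Wnt11 (adjusted p = 0.0618) lost their calls with 9 libraries and Xist as a covariate. Gata3 (adjusted p = 0.0575) was not called with 9 libraries alone.

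Wnt genes moved both ways. Axin2, which beta-catenin switches on and which then brakes the pathway, was at 31.6, 32.1 and 34.2 CPM in wild type and 17.6, 20.5 and 22.5 CPM in mutants (log2 fold change -0.69, adjusted p = 0.00882). Dkk1, a secreted Wnt inhibitor made by early nephrons, was at 25.4, 31.1 and 34.3 CPM in wild type and 11.1, 7.34 and 14.0 CPM in mutants (log2 fold change -1.48, adjusted p = 0.00847). Both were called in every fit. Of 26 Wnt genes tested, 8 were called lower (3 without mutant 24, 4 without mutant 27, 2 without wild type 37 and 3 without wild type 55) and 5 higher (0 without wild type 37 and 0 without wild type 55). Sfrp4, another secreted Wnt inhibitor, went the other way, at 0.478, 0.369 and 0.347 CPM in wild type and 2.72, 4.61 and 3.19 CPM in mutants (log2 fold change 3.13, adjusted p = 0.00188). Nkd1, a further target of the pathway in some tissues, was not called (log2 fold change -0.04, adjusted p = 0.875). Nkd1 and Sfrp4 were chosen after their values were seen. Dkk1 is also on the study's own list. Axin2 (adjusted p = 0.0526) and Dkk1 (adjusted p = 0.0961) lost their calls with 9 libraries and Xist as a covariate.

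Single markers of other cells that build the kidney were higher. Foxd1, which marks the progenitors of the stroma, was higher, at 21.3, 25.0 and 26.6 CPM in wild type and 40.1, 40.0 and 35.2 CPM in mutants (log2 fold change 0.66, adjusted p = 0.0101), and it was called in every fit. Tbx18, a T-box factor of the mesenchyme around the ureter that gives rise to its smooth muscle, was at 3.32, 2.38 and 2.43 CPM in wild type and 7.21, 9.02 and 9.09 CPM in mutants (log2 fold change 1.64, adjusted p = 0.00394). The list of 10 stromal progenitor genes was mixed: 3 were called higher (1 without wild type 37 and 1 without wild type 55) and 0 lower (1 without mutant 29 and 1 without wild type 30), but the median was -0.11, with 7 genes below 0. Foxd1 was the 1 member called in every fit. Tbx18 was chosen after its values were seen. Foxd1 (adjusted p = 0.274) was not called with 9 libraries alone.

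Some genes of cell division were lower. Mki67, a protein of proliferating cells, was at 276, 276 and 316 CPM in wild type and 131, 134 and 155 CPM in mutants (log2 fold change -1.05, adjusted p = 0.00173). Cenpe, a motor that ties chromosomes to the spindle, was at 73.7, 71.9 and 76.7 CPM in wild type and 39.1, 34.8 and 41.8 CPM in mutants (log2 fold change -0.94, adjusted p = 0.00173), and Cenpf, a kinetochore protein, was at 93.9, 88.6 and 103 CPM in wild type and 60.6, 50.4 and 59.6 CPM in mutants (log2 fold change -0.74, adjusted p = 0.00516). Of 30 mitosis genes 6 were called lower (3 without mutant 24, 3 without wild type 37 and 3 without wild type 55), these 3 in every fit, and the list had a median of -0.43. Its medians in mutants 24, 27 and 29 were -0.27, -0.84 and -0.25, so mutant 27 lay well below the other mutants. The 32 DNA replication genes had a median of -0.35 (-0.22, -0.74 and -0.11 in mutants 24, 27 and 29), but only 2 were called lower (0 without mutant 24, 0 without mutant 27, 1 without mutant 29, 0 without wild type 37 and 0 without wild type 55), and Mcm2, a subunit of the replicative helicase, was not called (log2 fold change -0.24, adjusted p = 0.305). A pair of genes for repair of broken DNA were lower. Bard1, the partner of Brca1, was at 14.0, 14.9 and 15.3 CPM in wild type and 8.07, 5.76 and 7.80 CPM in mutants (log2 fold change -1.03, adjusted p = 0.00729), and Brca2, which loads the recombinase, was at 23.1, 25.1 and 25.6 CPM in wild type and 15.4, 16.1 and 16.3 CPM in mutants (log2 fold change -0.63, adjusted p = 0.00704). Bard1 and Brca2 were chosen after their values were seen. Mki67 is also on the study's own list.

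Some centrosome genes were lower too. Of 54 genes annotated to the centriole, 21 were called lower (9 without mutant 24, 5 without wild type 37 and 5 without wild type 55), and only 5 of them in every fit: Alms1, Cep250, Dzip1l, Mphosph9 and Pcnt. Pcnt, the scaffold around the centrioles, was at 51.5, 49.6 and 52.2 CPM in wild type and 34.5, 35.9 and 37.8 CPM in mutants (log2 fold change -0.50, adjusted p = 0.00699). Alms1, whose loss causes the ciliopathy Alström syndrome, was at 23.6, 20.4 and 19.7 CPM in wild type and 12.5, 11.7 and 13.7 CPM in mutants (log2 fold change -0.75, adjusted p = 0.00835). Cep152, a scaffold for centriole duplication, was lower still, at 10.1, 12.5 and 13 CPM in wild type and 3.99, 3.85 and 4.75 CPM in mutants (log2 fold change -1.50, adjusted p = 0.00276). Cep110, a protein of the mature centriole that is needed to finish division, was at 39.9, 37.8 and 42.2 CPM in wild type and 13.7, 15.6 and 15.2 CPM in mutants (log2 fold change -1.43, adjusted p = 0.000574). The term was chosen after its values were seen. Alms1, Cep110, Cep152, Cep250, Dzip1l, Mphosph9 and Pcnt were chosen after their values were seen. Alms1 (adjusted p = 0.18) and Mphosph9 (adjusted p = 0.077) were not called with 9 libraries alone.

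Several chromatin regulators fell. Kmt2a, the methyltransferase that maintains Hox expression, was at 88.7, 72.4 and 82.6 CPM in wild type and 35.1, 47.7 and 38.3 CPM in mutants (log2 fold change -1.01, adjusted p = 0.00506). Chd7, the remodeller mutated in CHARGE syndrome, was at 31.1, 29.8 and 32.0 CPM in wild type and 18.1, 16.6 and 21.1 CPM in mutants (log2 fold change -0.73, adjusted p = 0.00738). Atrx, a remodeller of repetitive DNA, was at 197, 174 and 197 CPM in wild type and 132, 135 and 133 CPM in mutants (log2 fold change -0.51, adjusted p = 0.00759), and Nipbl, which loads cohesin, was at 149, 131 and 141 CPM in wild type and 91.6, 107 and 96.5 CPM in mutants (log2 fold change -0.51, adjusted p = 0.0106). Jarid2, a partner of Polycomb repressive complex 2, was at 109.6, 106 and 117 CPM in wild type and 81.8, 84.2 and 81.8 CPM in mutants (log2 fold change -0.43, adjusted p = 0.0088). Of 248 genes annotated to chromatin modification, 14 were called lower in every fit, a term chosen after its values were seen. Atrx, Chd7, Jarid2, Kmt2a and Nipbl were chosen after their values were seen. Chd7 (adjusted p = 0.0682) and Nipbl (adjusted p = 0.088) were not called with 9 libraries alone.

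Most of the listed RNAs that stay in the nucleus were lower. Of 25 nuclear-retained or intron-retaining transcripts, 23 were called lower, 19 of them in every fit, with a list median of -0.68. Malat1, a noncoding RNA of nuclear speckles, was at 106, 99.3 and 119 CPM in wild type and 35.9, 44.2 and 28.6 CPM in mutants (log2 fold change -1.58, adjusted p = 0.00208). Neat1, which builds paraspeckles, was at 18.7, 18.46 and 33.9 CPM in wild type and 4.05, 6.06 and 3.79 CPM in mutants (log2 fold change -2.35, adjusted p = 0.0047). Pspc1, a protein of the same paraspeckles, was also lower (log2 fold change -0.59, adjusted p = 0.00668). The kinases Clk1 and Clk4 phosphorylate splicing factors and hold back their own mRNA through a retained intron. Clk1 was at 54.8, 54.96 and 71.6 CPM in wild type and 24.7, 24.6 and 23.8 CPM in mutants (log2 fold change -1.31, adjusted p = 0.0016) and Clk4 at 31.3, 32.4 and 38.7 CPM in wild type and 12.9, 15.5 and 12.4 CPM in mutants (log2 fold change -1.33, adjusted p = 0.00192). Ccnl1, the cyclin of a kinase that acts in splicing, was at 47.2, 50.8 and 55.9 CPM in wild type and 18.2, 16.5 and 16.7 CPM in mutants (log2 fold change -1.58, adjusted p = 0.00041). Clk1, Clk4 and Pspc1 were chosen after their values were seen. Ccnl1, Clk1 and Malat1 are also on the study's own list. Pspc1 (adjusted p = 0.0632) lost its call with 9 libraries and Xist as a covariate.

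Part of the splicing machinery was lower too, some of it already counted among the nuclear-retained transcripts. Srrm2, a large scaffold of nuclear speckles, was at 408, 380.0 and 417 CPM in wild type and 247, 268 and 264 CPM in mutants (log2 fold change -0.63, adjusted p = 0.00431). Srsf11, a splicing factor, was at 155, 154 and 180.4 CPM in wild type and 111, 97.0 and 109.6 CPM in mutants (log2 fold change -0.62, adjusted p = 0.00759), and Acin1, which sits on spliced mRNA, was at 174, 164 and 196 CPM in wild type and 110.1, 107 and 117 CPM in mutants (log2 fold change -0.68, adjusted p = 0.00498). Of 215 genes annotated to RNA splicing, 17 were called lower in every fit and 198 were not, and 7 of the 17 are also on the nuclear-retained list. Of the 37 RNA-binding motif genes 5 were lower in every fit: Rbm5, Rbm25, Rbm26, Rbm33 and Rbm39, of which Rbm5, Rbm25 and Rbm39 are on that list. The term and the gene family were chosen after their values were seen. Prrc2c, a translation and stress granule protein with a long mRNA, was at 289.8, 255 and 283 CPM in wild type and 166, 178 and 178 CPM in mutants (log2 fold change -0.67, adjusted p = 0.00394). Rbm25, Rbm26, Rbm33, Rbm39 and Rbm5 were chosen after their values were seen. Rbm25 (adjusted p = 0.0893) lost its call with 9 libraries and Xist as a covariate. Prrc2c (adjusted p = 0.0814), Rbm25 (adjusted p = 0.051) and Srrm2 (adjusted p = 0.0593) were not called with 9 libraries alone.

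Some hosts of small nucleolar RNAs, whose spliced mRNAs are destroyed by nonsense-mediated decay, were lower too. Of 12 tested, 7 were called lower (4 without wild type 37 and 4 without wild type 55), with a list median of -0.58. Of these, 4 were called lower in every fit. Snhg1 was at 32.9, 37.9 and 40.8 CPM in wild type and 17.3, 16.1 and 14.8 CPM in mutants (log2 fold change -1.21, adjusted p = 0.00173), Snhg5 at 11.4, 14.2 and 15.5 CPM in wild type and 5.17, 5.63 and 5.22 CPM in mutants and Gm11974, an older name of Snhg15, at 2.79, 3.07 and 3.47 CPM in wild type and 0.235, 0.866 and 0.632 CPM in mutants. The fourth, 9430008C03Rik (an older name of Snhg17), was at 12.7, 13.3 and 15.8 CPM in wild type and 2.51, 3.39 and 1.87 CPM in mutants (log2 fold change -2.43, adjusted p = 0.00173). Some factors of the decay pathway were lower in the same kidneys. Smg1, the kinase that starts it, was at 149, 125 and 129 CPM in wild type and 79.6, 86.2 and 73.0 CPM in mutants (log2 fold change -0.75, adjusted p = 0.00491), and Upf3b, which links it to exon junctions, was at 22.8, 25.0 and 29.1 CPM in wild type and 13.1, 13.2 and 13.2 CPM in mutants (log2 fold change -0.96, adjusted p = 0.00386). Of 31 genes annotated to that pathway 4 were called lower in every fit, Pan3 and Smg5 being the others, in a term chosen after its values were seen. Pan3, Smg1, Smg5, Snhg5 and Upf3b were chosen after their values were seen. Snhg1 and Snhg5 are also on the study's own list. Pan3 (adjusted p = 0.0815) lost its call with 9 libraries and Xist as a covariate. Smg1 (adjusted p = 0.0851) and Smg5 (adjusted p = 0.0523) were not called with 9 libraries alone.

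**Figure D3:**
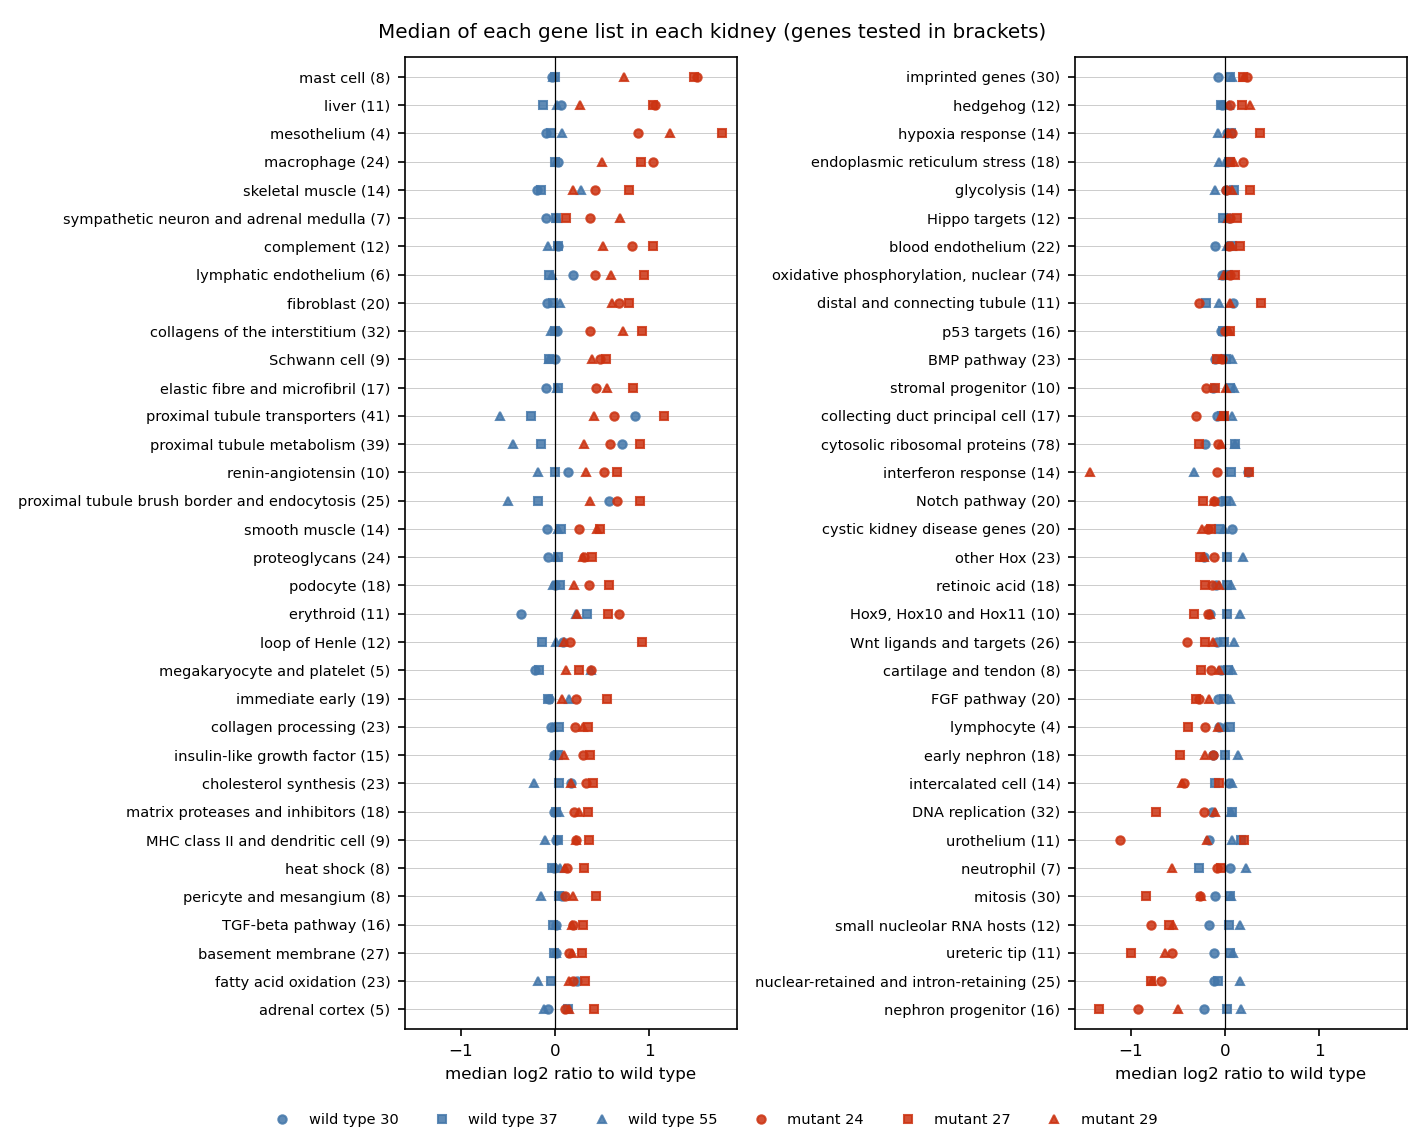
Median log2 ratio to the wild type mean (horizontal) of the genes of each list, 1 point per kidney, with the number of tested genes in brackets. The nephron progenitor list is at -0.92, -1.34 and -0.50 in mutants 24, 27 and 29 and the macrophage list at 1.04, 0.92 and 0.50.

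Many genes of the extracellular matrix were higher. Of 32 interstitial collagen genes, 14 were called higher in every fit (list median 0.68). The study's own list holds 10 of the 32. In the fit of 6 samples 16 were called higher and 3 lower, and 10 of those called are outside the study's list. Rare chains of collagen VI rose steeply. Col6a5, an alternative chain of collagen VI, was at 0.265, 0.138 and 0.446 CPM in wild type and 9.35, 10.7 and 4.94 CPM in mutants (log2 fold change 4.88, adjusted p = 0.00173), and Col6a6, another such chain, was at 5.41, 2.49 and 3.02 CPM in wild type and 39.7, 52.5 and 36.4 CPM in mutants (log2 fold change 3.56, adjusted p = 0.00131). The common chain Col6a3 was at 162, 199.8 and 195 CPM in wild type and 314, 409 and 344 CPM in mutants (log2 fold change 0.94, adjusted p = 0.00551). Col5a3, which helps start thin fibrils, was at 4.96, 3.78 and 3.72 CPM in wild type and 30.96, 24.9 and 17.6 CPM in mutants (log2 fold change 2.56, adjusted p = 0.0016). Col27a1, a fibrillar collagen of cartilage, went down, at 31.9, 29.6 and 31.7 CPM in wild type and 12.8, 15.5 and 14.3 CPM in mutants (log2 fold change -1.13, adjusted p = 0.0016), so the class did not move as 1 block. Col27a1 and Col5a3 were chosen after their values were seen.

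Some proteins that bind collagen were higher too. Tnxb, the tenascin that spaces fibrils in loose connective tissue, was at 2.81, 2.58 and 3.02 CPM in wild type and 27.6, 29.4 and 19.4 CPM in mutants (log2 fold change 3.18, adjusted p = 0.00041). Dpt, which speeds fibril assembly, was at 1.38, 0.715 and 1.66 CPM in wild type and 14.4, 16.7 and 12.8 CPM in mutants (log2 fold change 3.55, adjusted p = 0.00123). Of 24 proteoglycan genes, 8 were called higher in every fit. The study's own list holds 5 of the 24. In the fit of 6 samples 8 were called higher and 1 lower, and 4 of those called are outside the study's list. Prelp, an anchor between basement membrane and stroma, was at 9.95, 5.51 and 3.24 CPM in wild type and 34.2, 47.3 and 39.4 CPM in mutants (log2 fold change 2.69, adjusted p = 0.00558), and Bgn, an abundant small proteoglycan, was at 263, 273 and 292 CPM in wild type and 459.8, 547 and 465 CPM in mutants (log2 fold change 0.83, adjusted p = 0.00361). Kera, best known from the cornea, was nearly silent in wild type, at 0.0265, 0 and 0.0495 CPM in wild type and 1.23, 1.55 and 1.84 CPM in mutants. Gpc2, a proteoglycan of dividing neural and embryonic cells, was lower (log2 fold change -0.88, adjusted p = 0.00744). Gpc2 and Tnxb were chosen after their values were seen.

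Of 17 genes of elastic fibres and microfibrils, 13 were called higher (8 without mutant 24, 8 without mutant 27, 6 without wild type 37 and 6 without wild type 55), 6 of them in every fit. The study's own list holds 3 of the 17, and 10 of those called are outside it. Ltbp2, which sits on fibrillin microfibrils, was at 1.38, 0.554 and 0.693 CPM in wild type and 5.27, 13.3 and 4.73 CPM in mutants (log2 fold change 3.16, adjusted p = 0.0102). Fbn1, the fibrillin mutated in Marfan syndrome, was at 156, 176 and 159 CPM in wild type and 294, 325 and 317 CPM in mutants (log2 fold change 0.93, adjusted p = 0.00145), and Fbln5, which deposits elastin on it, was at 149, 155 and 158 CPM in wild type and 283, 282 and 267 CPM in mutants (log2 fold change 0.85, adjusted p = 0.00123). Of 23 collagen processing genes 4 were called higher in every fit (median 0.29), while P4ha1, which hydroxylates collagen prolines, was not called (log2 fold change 0.16, adjusted p = 0.404). Adamts2, which removes the amino-terminal propeptide, was at 18.55, 14.7 and 14.98 CPM in wild type and 40.3, 61.8 and 38.9 CPM in mutants (log2 fold change 1.55, adjusted p = 0.00477), and Pcolce, which speeds removal of the other one, was at 109.7, 127 and 123 CPM in wild type and 203, 254 and 219.6 CPM in mutants (log2 fold change 0.91, adjusted p = 0.00362). Sparc, a collagen chaperone, was among the most abundant genes that rose, at 1149, 1249 and 1199 CPM in wild type and 1809, 2049.6 and 1889 CPM in mutants (log2 fold change 0.68, adjusted p = 0.00491). Fbln5 was chosen after its values were seen.

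The cells that make this matrix were marked too. Pdgfra, a growth factor receptor of fibroblasts, was at 182, 209 and 193 CPM in wild type and 291, 376 and 356 CPM in mutants (log2 fold change 0.81, adjusted p = 0.00639). Prrx1, a homeobox factor of limb and connective tissue mesenchyme, was at 14.97, 17.0 and 20.8 CPM in wild type and 53.3, 72.9 and 47.1 CPM in mutants (log2 fold change 1.71, adjusted p = 0.003005). Vim, the intermediate filament of mesenchymal cells, was at 512, 659 and 631 CPM in wild type and 940.4, 1029.8 and 982 CPM in mutants (log2 fold change 0.71, adjusted p = 0.00859). Among 20 tested fibroblast markers 7 were called higher in every fit, with a median of 0.69. All 21 of the list, tested or not, had a summed level of 1290, 1290 and 1240 CPM in wild type and 2260, 2750 and 2190 CPM in mutants. Of the 20 tested markers 5 were below 0, and 1 was called lower (0 without mutant 24, 0 without mutant 29, 0 without wild type 37 and 0 without wild type 55). The study's own list holds 4 of the 20, and 7 of those called in the fit of 6 samples are outside it. Scara5, a ferritin receptor of adventitial fibroblasts, was at 2.65, 2.19 and 2.48 CPM in wild type and 17.9, 14.4 and 9.48 CPM in mutants (log2 fold change 2.51, adjusted p = 0.00202). Lama2, the laminin chain of muscle and stromal basement membranes, was at 55.8, 57.2 and 56.3 CPM in wild type and 92.5, 108 and 86.5 CPM in mutants (log2 fold change 0.76, adjusted p = 0.00431), while the 27 basement membrane genes as a list had a median of 0.22. Prrx1 and Scara5 were chosen after their values were seen. Lama2 (adjusted p = 0.0959) lost its call with 9 libraries and Xist as a covariate. Lama2 (adjusted p = 0.0593) and Vim (adjusted p = 0.145) were not called with 9 libraries alone.

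**Figure D4:**
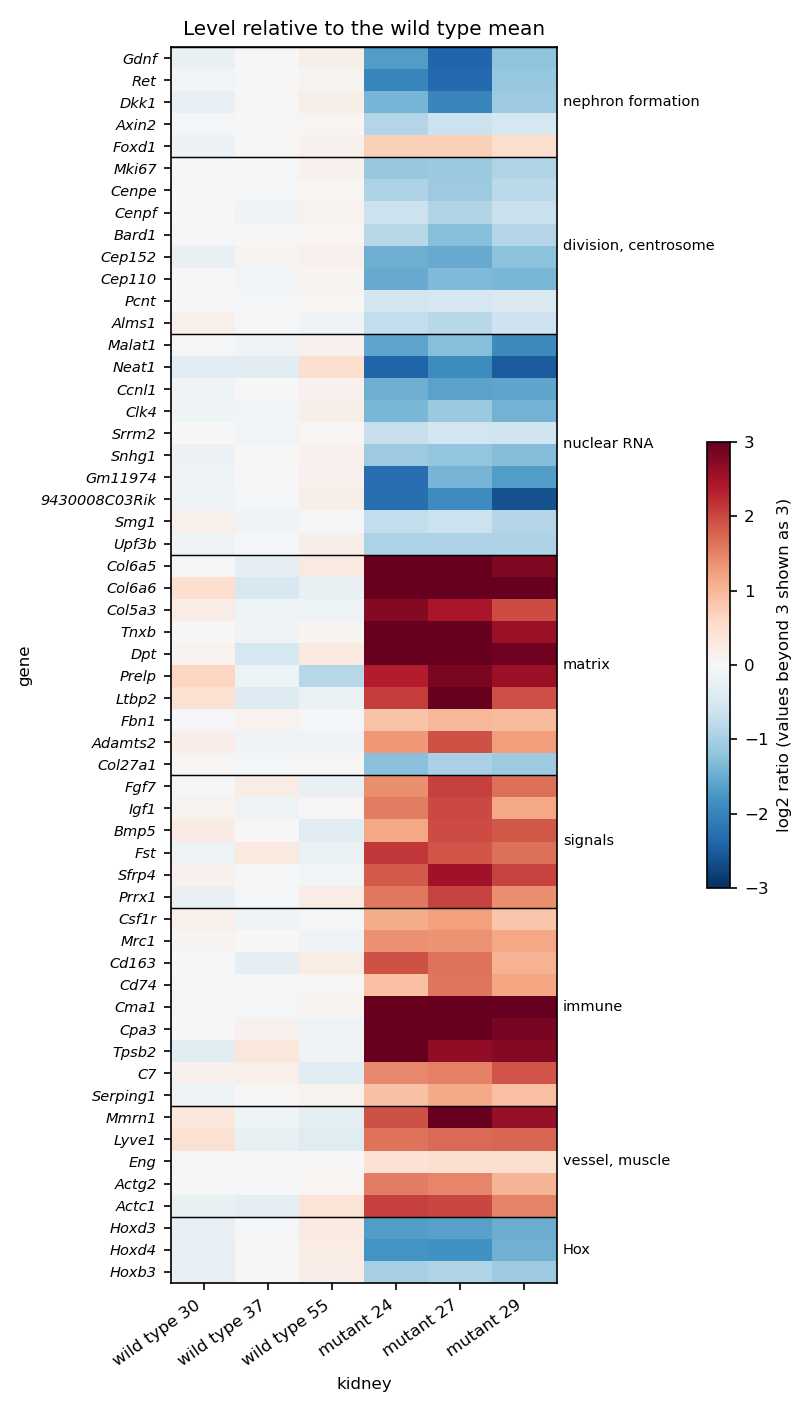
Colour gives the log2 ratio to the wild type mean of single genes (vertical) in each of the 6 kidneys (horizontal), with values beyond 3 shown as 3. Gdnf and Ret are lowest in mutant 27, and the matrix genes other than Col27a1 are above wild type in all 3 mutants.

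Single growth factors and other signalling genes were higher. Fgf7, a mesenchymal ligand for epithelial receptors, was at 0.292, 0.438 and 0.198 CPM in wild type and 1.62, 2.88 and 2.06 CPM in mutants (log2 fold change 2.80, adjusted p = 0.00564), 1 of 20 FGF pathway genes called higher in every fit. Igf1 was at 33.4, 28.2 and 32.2 CPM in wild type and 93.6, 124 and 70.0 CPM in mutants (log2 fold change 1.62, adjusted p = 0.00425), and the far more abundant fetal growth factor Igf2 was at 1444, 1503 and 1419.6 CPM in wild type and 2144, 2067 and 2092 CPM in mutants (log2 fold change 0.53, adjusted p = 0.00711). Bmp5, a BMP ligand of mesenchyme, was at 1.86, 1.5 and 1.06 CPM in wild type and 3.92, 7.21 and 6.73 CPM in mutants (log2 fold change 2.01, adjusted p = 0.00799), and Bmp6 at 12.3, 11.0 and 10.8 CPM in wild type and 18.2, 20.5 and 17.7 CPM in mutants (log2 fold change 0.73, adjusted p = 0.00829). Fst, which traps activins and some BMPs, was at 0.929, 1.43 and 0.867 CPM in wild type and 6.40, 5.30 and 4.48 CPM in mutants (log2 fold change 2.32, adjusted p = 0.00335). Rxra, the partner receptor of retinoic acid receptors, was at 112, 97.5 and 95.0 CPM in wild type and 147, 149 and 147 CPM in mutants (log2 fold change 0.54, adjusted p = 0.00757). The lists these genes come from differed. The insulin-like growth factor list had a median of 0.28 with 12 of 15 genes above 0, and the TGF-beta list, which holds Fst, one of 0.24 with 14 of 16 above 0. The BMP list had a median of -0.09 with 13 of 23 genes below 0, the FGF list one of -0.24 with 15 of 20 below 0, and the retinoic acid list one of -0.20 with 13 of 18 below 0. By edgeR the insulin-like growth factor list had 6 higher (3 without mutant 24, 2 without wild type 37 and 3 without wild type 55) and 1 lower (0 without mutant 24, 0 without mutant 27, 2 without wild type 30, 0 without wild type 37 and 0 without wild type 55), and the TGF-beta list 4 higher (2 without wild type 37) and 0 lower (1 without wild type 30). The FGF list had 2 higher (1 without mutant 24, 1 without mutant 27, 1 without wild type 37 and 1 without wild type 55) and 3 lower (0 without mutant 24, 1 without mutant 27, 6 without wild type 30, 0 without wild type 37 and 0 without wild type 55), the BMP list 3 higher and 1 lower (0 without mutant 24, 0 without mutant 27, 0 without mutant 29, 3 without wild type 30, 0 without wild type 37 and 0 without wild type 55), and the retinoic acid list 2 higher (1 without wild type 37 and 1 without wild type 55) and 2 lower (1 without mutant 24, 0 without mutant 27, 1 without mutant 29, 1 without wild type 30, 0 without wild type 37 and 0 without wild type 55). Cxcl12, the chemokine that stromal cells use to guide vessels, was at 351, 341 and 335 CPM in wild type and 472, 491 and 459 CPM in mutants (log2 fold change 0.47, adjusted p = 0.00787). Cxcl12 and Rxra were chosen after their values were seen. Bmp6 (adjusted p = 0.0533) and Rxra (adjusted p = 0.154) lost their calls with 9 libraries and Xist as a covariate. Igf2 (adjusted p = 0.0715) and Rxra (adjusted p = 0.088) were not called with 9 libraries alone.

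Immune cells left a clear mark. Of 24 macrophage genes 8 were called higher in every fit, with a median of 0.96 and a summed level of 252, 230 and 220 CPM in wild type and 481, 496 and 401 CPM in mutants. Csf1r, the receptor on which macrophages depend, was at 28.98, 23.6 and 25.0 CPM in wild type and 56.4, 61.2 and 46.1 CPM in mutants (log2 fold change 1.08, adjusted p = 0.00404). Emr1, which encodes the F4/80 antigen of tissue macrophages, was at 5.47, 5.31 and 3.62 CPM in wild type and 14.3, 14.4 and 10.7 CPM in mutants (log2 fold change 1.46, adjusted p = 0.00639). Scavenging receptors of resident macrophages were higher too: Cd163, the haemoglobin receptor, was at 2.49, 1.98 and 2.97 CPM in wild type and 10.7, 8.66 and 5.66 CPM in mutants (log2 fold change 1.75, adjusted p = 0.00847) and Mrc1, the mannose receptor, at 23.6, 22.5 and 20.9 CPM in wild type and 58.8, 58.0 and 50.8 CPM in mutants (log2 fold change 1.32, adjusted p = 0.000668). F13a1, a clotting factor chain that such macrophages make, was at 22.6, 23.4 and 16.6 CPM in wild type and 63.1, 61.2 and 53.9 CPM in mutants (log2 fold change 1.51, adjusted p = 0.00173). Cd74, the invariant chain of MHC class II, was at 7.17, 7.34 and 7.55 CPM in wild type and 14.3, 23.4 and 17.3 CPM in mutants (log2 fold change 1.32, adjusted p = 0.00652), and Cxcl13, a chemokine that attracts B cells, was at 2.57, 3.65 and 1.83 CPM in wild type and 8.54, 9.25 and 7.55 CPM in mutants (log2 fold change 1.65, adjusted p = 0.00808). Of 9 genes of MHC class II and dendritic cells, Cd74 alone was called in the fit of 6 samples. That list had a median of 0.28 with 2 genes below 0. Cxcl13 and F13a1 were chosen after their values were seen. Emr1 (adjusted p = 0.0843) lost its call with 9 libraries and Xist as a covariate.

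Mast cells were marked by their granule proteases. Cma1, a chymase, was at 0.265, 0.277 and 0.347 CPM in wild type and 8.56, 8.28 and 7.31 CPM in mutants (log2 fold change 4.75, adjusted p = 0.000199). Cpa3, their carboxypeptidase, was at 0.717, 0.831 and 0.594 CPM in wild type and 10.7, 9.12 and 8.24 CPM in mutants (log2 fold change 3.70, adjusted p = 0.000377), and Tpsb2, a tryptase, was at 0.398, 0.923 and 0.545 CPM in wild type and 8.54, 6.57 and 7.09 CPM in mutants (log2 fold change 3.55, adjusted p = 0.00145). These 3 of 8 mast cell genes were called in every fit, and the list median was 1.52. In the fit of 6 samples 4 of the 8 were called higher, and 2 of the 8 were below 0. Complement genes had a median of 0.81 over 12 genes. C7, a part of the pore that complement forms, was at 1.11, 1.15 and 0.669 CPM in wild type and 3.52, 3.72 and 4.97 CPM in mutants (log2 fold change 2.05, adjusted p = 0.00558), and Serping1, the inhibitor that restrains its first step, was at 72.9, 83.7 and 87.3 CPM in wild type and 149, 181 and 151 CPM in mutants (log2 fold change 0.98, adjusted p = 0.0029). Among 4 lymphocyte, 7 neutrophil and 14 interferon response genes edgeR made 0 calls in the fit of 6 samples. There were 0 at an unadjusted p under 0.05 as well, and 0 with DESeq2 or limma. The interferon list had 1 edgeR call, lower, without mutant 27. Serping1 was chosen after its values were seen. C7 (adjusted p = 0.118) lost its call with 9 libraries and Xist as a covariate. C7 (adjusted p = 0.0736) was not called with 9 libraries alone.

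Filters and tubes differed less firmly. Of 18 podocyte genes 8 were called higher (median 0.45), a count that was 0 without mutant 24, 3 without mutant 27, 0 without wild type 37 and 0 without wild type 55. Nphs1, a protein of the slit diaphragm of the glomerular filter, was not called (log2 fold change 0.45, adjusted p = 0.142). Of 41 transporters of the proximal tubule, which reclaims solutes from the filtrate, 3 were called higher, a count that was 0 without mutant 24, 0 without mutant 27, 31 without wild type 30, 0 without wild type 37 and 1 without wild type 55. The summed level of all 42 genes of the list, tested or not, was 4320, 2110 and 1620 CPM in wild type and 4410, 5580 and 3230 CPM in mutants, so wild type 30 lay among the mutants. Lrp2, the endocytic receptor of that segment, was at 1063, 529 and 425 CPM in wild type and 986, 1126 and 838 CPM in mutants and was not called (adjusted p = 0.261, or 0.00911 without wild type 30). Slc34a1, its phosphate transporter, was at 761, 368 and 267 CPM in wild type and 737, 875 and 558 CPM in mutants (adjusted p = 0.257, or 0.0139 without wild type 30). Of 12 loop of Henle genes 2 were called higher (median 0.40, all 12 above 0). Of 11 distal and connecting tubule genes 0 were called (median 0.04). Of 17 collecting duct principal cell genes 3 were called lower (median -0.12, 11 below 0). Of 14 intercalated cell genes 1 was called lower (median -0.30, 11 below 0). Without mutant 24 the calls of the loop, collecting duct and intercalated lists in these directions fell to 0.

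Some smooth muscle genes of vessel and ureter walls were higher. Of 14 smooth muscle genes 6 were called higher (median 0.47), a count that was 2 without wild type 37 and 1 without wild type 55. Actg2, the actin of visceral smooth muscle and the only gene of this list called in every fit, was at 3.24, 3.21 and 3.42 CPM in wild type and 10.4, 9.96 and 7.22 CPM in mutants (log2 fold change 1.49, adjusted p = 0.00415). Acta2, the actin of vessel walls, was at 352, 403 and 335 CPM in wild type and 552, 557 and 502 CPM in mutants (log2 fold change 0.56, adjusted p = 0.0109; adjusted p = 0.0538 without wild type 55, and as low as 0.016 in the other fits without 1 sample). Actc1, an actin of heart and early smooth muscle, was at 0.637, 0.577 and 1.26 CPM in wild type and 4.96, 4.84 and 3.24 CPM in mutants (log2 fold change 2.39, adjusted p = 0.00705). Most genes of blood endothelium were not called. The list median was 0.07 with 7 of 22 genes below 0, and 3 were called higher (1 without mutant 24, 5 without wild type 30, 1 without wild type 37 and 1 without wild type 55). Eng, a TGF-beta co-receptor and the only one called in every fit, was at 134, 142 and 139 CPM in wild type and 187, 193 and 191 CPM in mutants (log2 fold change 0.46, adjusted p = 0.00639), and Acvrl1, its signalling partner, was at 46.7, 47.9 and 44.8 CPM in wild type and 72.6, 74.2 and 60.5 CPM in mutants (log2 fold change 0.57, adjusted p = 0.0101). Genes of lymphatic vessels split. Higher were Mmrn1, a matrix protein at 3.34, 2.31 and 2.06 CPM in wild type and 11.0, 23.6 and 18.2 CPM in mutants (log2 fold change 2.78, adjusted p = 0.0035), and Lyve1, a hyaluronan receptor shared with macrophages, at 15.8, 9.81 and 8.74 CPM in wild type and 36.6, 38.3 and 39.6 CPM in mutants (log2 fold change 1.74, adjusted p = 0.00428), the 2 of 6 lymphatic genes called in every fit. Reln, the most abundant of the list, was called lower (log2 fold change -0.41, adjusted p = 0.0446; adjusted p = 0.0707 without mutant 24, 0.111 without mutant 27, 0.0858 without mutant 29, 0.169 without wild type 37 and 0.14 without wild type 55, and as low as 0.0166 in the other fits without 1 sample), and Prox1, its first gene, was not called (log2 fold change 1.24, adjusted p = 0.0523). Actc1 and Acvrl1 were chosen after their values were seen. Lyve1 is also on the study's own list. Reln (adjusted p = 0.389) lost its call with 9 libraries and Xist as a covariate. Acta2 (adjusted p = 0.131), Actc1 (adjusted p = 0.0554), Actg2 (adjusted p = 0.105) and Reln (adjusted p = 0.214) were not called with 9 libraries alone.

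Lists for neighbouring tissues gauged what a dissected kidney might carry, and their part in the result was not tested. Of 11 tested liver genes 4 were called higher (2 without mutant 24, 0 without wild type 37 and 2 without wild type 55). All 13 of the list, tested or not, summed to 84.6, 93.6 and 55 CPM in wild type and 155, 159 and 79.1 CPM in mutants. Afp was the most abundant, and Alb, the main plasma protein, was at 1.09, 0.669 and 0.867 CPM in wild type and 8.64, 15.9 and 3.02 CPM in mutants (log2 fold change 3.397, adjusted p = 0.0119; adjusted p = 0.0596 without wild type 37 and 0.0538 without wild type 55, and as low as 0.00283 in the other fits without 1 sample). Of 4 tested genes of mesothelium, the outer lining of organs, 2 were called higher (0 without wild type 37 and 0 without wild type 55). All 6 of the list, tested or not, summed to 99.4, 69.2 and 50.3 CPM in wild type and 142, 174 and 128 CPM in mutants, with Gpm6a highest. Of 11 genes of urothelium, the lining of pelvis and ureter, 2 were called higher (1 without wild type 37 and 1 without wild type 55), and they summed to 75.2, 100 and 87.3 CPM in wild type and 65.6, 158 and 113 CPM in mutants, while the list median was -0.40 with 6 genes below 0. Sprr2f, a cornified envelope protein and the most abundant of these over the 6 samples, was at 10.6, 14.0 and 7.50 CPM in wild type and 31.7, 49.8 and 42.0 CPM in mutants (log2 fold change 1.94, adjusted p = 0.00491). It may be the Spr2f entry of the study's own list, a symbol absent from the table. Of 9 tested Schwann cell genes 3 were called higher (1 without mutant 24, 1 without mutant 27, 0 without wild type 37 and 0 without wild type 55). All 10 of the list, tested or not, summed to 100, 78.3 and 84.9 CPM in wild type and 97.9, 102 and 102 CPM in mutants, with Ngfr highest. Of 14 tested skeletal muscle genes 2 were called higher (0 without mutant 24 and 0 without wild type 37). The 15 of the list with a read summed to 16.4, 19.4 and 24.7 CPM in wild type and 30.1, 38.9 and 22.9 CPM in mutants. Tnnt1 was highest, and there were no reads of Pax7, which defines muscle stem cells. Of 7 genes of sympathetic neurons and adrenal medulla 3 were called higher (0 without mutant 27, 0 without wild type 37 and 1 without wild type 55) and 0 lower (2 without mutant 29). With the untested genes, 12 in all, the list summed to 15.9, 17.3 and 18.6 CPM in wild type and 16.4, 17.9 and 30.2 CPM in mutants, with Gap43 highest. Only the 7 tested genes have a fold change. Their median was 0.88 with 3 below 0, and Chgb, a protein of secretory granules, was at 0.0531, 0.115 and 0.0991 CPM in wild type and 0.313, 0.688 and 1.76 CPM in mutants (log2 fold change 3.30, adjusted p = 0.0286; adjusted p = 0.0565 without mutant 27, 0.0962 without wild type 37 and 0.0972 without wild type 55, and as low as 0.0253 in the other fits without 1 sample). Of 8 adipocyte genes only Car3 passed the count filter, and it was called higher (log2 fold change 1.67, adjusted p = 0.0347; adjusted p = 0.0602 without mutant 27, 0.0624 without mutant 29, 0.126 without wild type 37 and 0.113 without wild type 55, and as low as 0.0342 in the other fits without 1 sample). Among 5 adrenal cortex genes edgeR and limma called 0, against 2 higher at an unadjusted p under 0.05 and 2 with DESeq2. The 8 of that list with a read, tested or not, summed to 51.4, 48.8 and 45.5 CPM in wild type and 52.3, 63.6 and 55.4 CPM in mutants. Fdx1 was highest, and there were no reads of Cyp11b2, which defines the outer zone. Alb (adjusted p = 0.131), Car3 (adjusted p = 0.105), Chgb (adjusted p = 0.12) and Gap43 (adjusted p = 0.129) lost their calls with 9 libraries and Xist as a covariate. Alb (adjusted p = 0.143), Car3 (adjusted p = 0.268) and Gap43 (adjusted p = 0.168) were not called with 9 libraries alone.

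Housekeeping pathways gave few calls with all 6 samples. None of 78 cytosolic ribosomal protein genes was called by edgeR or limma, with 3 lower at an unadjusted p under 0.05 and 1 lower with DESeq2. Without wild type 30, however, edgeR called 9 of them lower. Glycolysis, with 14 genes, also gave 0 edgeR calls, with 1 gene higher and 1 lower at an unadjusted p under 0.05 and 0 with DESeq2 or limma, and 1 lower edgeR call without wild type 30. Fatty acid oxidation, with 23 genes, gave 0 edgeR calls, 4 genes higher at an unadjusted p under 0.05, 3 with DESeq2 and 0 with limma, but 10 edgeR calls higher without wild type 30. Of 74 nuclear genes of oxidative phosphorylation edgeR called 1, which was higher. It called 5 higher without wild type 30 and 0 in each other fit without 1 sample. The median of these 74 genes was 0.05 and turned to -0.01 with scaling by library size only. In the hypoxia response Adm, a peptide that relaxes vessels, rose (log2 fold change 1.05, adjusted p = 0.00688) while Kdm3a, a histone demethylase, fell (log2 fold change -0.63, adjusted p = 0.00408), both in every fit. Slc7a11, the cystine importer that feeds glutathione, was at 2.84, 2.45 and 2.38 CPM in wild type and 17.0, 15.5 and 8.10 CPM in mutants (log2 fold change 2.41, adjusted p = 0.00396). Ptgs2, the inducible cyclooxygenase, was at 10.6, 8.93 and 6.74 CPM in wild type and 31.02, 43.7 and 25.6 CPM in mutants (log2 fold change 1.94, adjusted p = 0.00431). Ptgs2 and Slc7a11 were chosen after their values were seen. Adm is also on the study's own list. Kdm3a (adjusted p = 0.134) was not called with 9 libraries alone.

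Several imprinted growth regulators rose. Rtl1, a paternally expressed gene derived from a retrotransposon, was at 0.186, 0.438 and 0.347 CPM in wild type and 4.18, 3.16 and 1.98 CPM in mutants (log2 fold change 3.24, adjusted p = 0.0047), and Plagl1, a zinc-finger factor that controls other imprinted genes, was at 197, 230.3 and 235 CPM in wild type and 369.9, 342 and 315 CPM in mutants (log2 fold change 0.63, adjusted p = 0.00907). Of 30 imprinted genes 10 were called higher (6 without mutant 24, 6 without mutant 27, 4 without wild type 37 and 5 without wild type 55) and 3 lower (0 without mutant 24, 1 without mutant 29, 0 without wild type 37 and 0 without wild type 55). With Dlk1 and Igf2 they made 4 of 30 imprinted genes called higher in every fit. Zfp57, which keeps imprints methylated in the embryo, was lower, at 16.7, 21.1 and 23.7 CPM in wild type and 10.2, 8.89 and 10.8 CPM in mutants (log2 fold change -1.04, adjusted p = 0.00741). It was 1 of 5 of 345 zinc-finger genes of its name called lower in every fit. Zfp57 was chosen after its values were seen. Dlk1 is also on the study's own list. Zfp57 (adjusted p = 0.169) lost its call with 9 libraries and Xist as a covariate. Igf2 (adjusted p = 0.0715), Plagl1 (adjusted p = 0.332), Rtl1 (adjusted p = 0.0577) and Zfp57 (adjusted p = 0.088) were not called with 9 libraries alone.

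Near the mutated HoxC cluster 1 small gene family stood out. Within 5 Mb of Hoxa10, 8 of 90 tested genes were called higher and 13 lower (23.3%). Within 5 Mb of Hoxc10, 12 of 131 were called higher and 10 lower (16.8%). The shares called around Hoxd10 and Hoxb9 were 16.2% and 14.1%, against 13.7% of all tested genes. Within 5 Mb of Hoxc10, 5 of 131 tested genes were called higher in every fit, and 3 of these are Mettl7a2, AB099516 and Mettl7a3. Within 5 Mb of Hoxa10 the number was 1 of 90, Adcyap1r1, the receptor of a pituitary peptide. Over all tested genes 1.53% were called higher in every fit. Mettl7a2, which encodes a methyltransferase-like membrane protein, was at 0.0265, 0.0231 and 0.0248 CPM in wild type and 12.5, 19.95 and 2.97 CPM in mutants. AB099516 was at 0.0265, 0.0692 and 0.0248 CPM in wild type and 12.2, 19.5 and 2.94 CPM in mutants and Mettl7a3 at 0, 0 and 0 CPM in wild type and 1.49, 1.38 and 0.440 CPM in mutants. Hotair, a noncoding RNA read from within the HoxC cluster, was at 0.372, 0.323 and 0.272 CPM in wild type and 0, 0.0510 and 0.0824 CPM in mutants. It was called lower (adjusted p = 0.0361). The adjusted p was 0.0719 without mutant 24, 0.0928 without mutant 27, 0.0571 without wild type 30, 0.116 without wild type 37 and 0.0956 without wild type 55, and as low as 0.0469 in the other fits without 1 sample. No fold is given for Hotair, of which mutants held few reads, or for the Mettl7a genes, since wild type kidneys held 0 to 3 reads of each Mettl7a gene. Their paralogue Mettl7a1, the main member in wild type, was at 35.7, 30.3 and 29 CPM in wild type and 45.5, 61.3 and 33.1 CPM in mutants and was not called (log2 fold change 0.56, adjusted p = 0.108, or 0.0298 without mutant 29). Mettl7a2 and AB099516 overlap on chromosome 15 (100353200 to 100361819 and 100353200 to 100384435, RefSeq on GRCm38.p6), so how reads divide between them is uncertain, and reads of the other copies may be shared too. Mettl7a2 lies -2.61 Mb from Hoxc10, and mutant 29 had the lowest level of the mutants. The background is mixed, and whether linked sequence of another strain differs here between mutants and wild type was not tested. Adcyap1r1, Mettl7a1 and Mettl7a3 were chosen after their values were seen. Hotair (adjusted p = 0.309), Hoxa10 (adjusted p = 0.306) and Hoxc10 (adjusted p = 0.669) lost their calls with 9 libraries and Xist as a covariate. Hotair (adjusted p = 0.175), Hoxa10 (adjusted p = 0.145) and Hoxc10 (adjusted p = 0.292) were not called with 9 libraries alone.

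**Figure D5:**
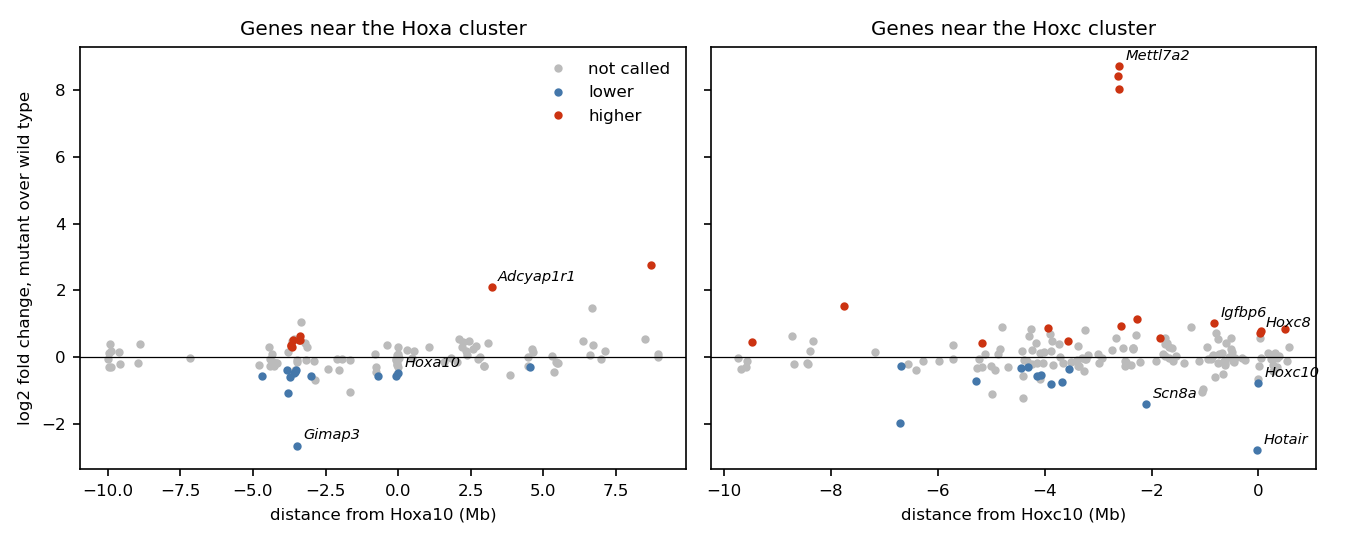
Log2 fold change of tested genes (vertical) against distance from Hoxa10 or Hoxc10 in Mb (horizontal), coloured by call. Mettl7a2, AB099516 and Mettl7a3 are the 3 points at the top, and Mettl7a2 lies -2.61 Mb from Hoxc10.

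The promoters are shown to let the copies be compared, each as the RefSeq table gives it, with 250 bases before and 50 after a start on GRCm38.p6. Those of Mettl7a2 and AB099516 are 1 sequence (chromosome 15, 100352950 to 100353249), and that of Mettl7a1 (chromosome 15, 100304567 to 100304866) is 57.3% identical to it in an alignment. The start used for Mettl7a1 lies inside the gene, which begins at 100304145, so the identity holds for these windows only. The promoter of Hoxd4 (chromosome 2, 74721728 to 74722027) is shown for its 2 copies of TTTATGG, a motif bound by posterior Hox proteins, in capitals. Mettl7a1 was chosen after its values were seen.

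Mettl7a2: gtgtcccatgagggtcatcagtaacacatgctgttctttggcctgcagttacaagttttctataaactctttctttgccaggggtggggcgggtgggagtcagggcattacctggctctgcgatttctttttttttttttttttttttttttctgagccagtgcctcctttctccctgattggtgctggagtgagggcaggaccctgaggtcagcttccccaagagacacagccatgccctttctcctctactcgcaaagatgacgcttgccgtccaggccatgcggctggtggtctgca

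Mettl7a1: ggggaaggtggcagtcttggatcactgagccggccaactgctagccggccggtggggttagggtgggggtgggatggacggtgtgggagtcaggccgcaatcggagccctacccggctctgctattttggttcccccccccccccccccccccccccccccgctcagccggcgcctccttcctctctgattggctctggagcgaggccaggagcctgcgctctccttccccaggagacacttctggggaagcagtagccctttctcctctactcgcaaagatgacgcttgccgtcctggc

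Hoxd4: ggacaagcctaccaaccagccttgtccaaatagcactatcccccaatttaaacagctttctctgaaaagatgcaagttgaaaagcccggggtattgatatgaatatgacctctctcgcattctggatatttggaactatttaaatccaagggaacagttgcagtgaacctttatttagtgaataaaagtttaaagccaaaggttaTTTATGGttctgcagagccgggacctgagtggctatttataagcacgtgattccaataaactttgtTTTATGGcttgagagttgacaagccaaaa

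The motif TTTATGG, searched on both strands, had a like share in each group of genes. It was in 1.93% of promoters of genes called higher, 1.86% of those called lower and 1.78% of all 15683 promoters of 12348 tested genes. TTTGAA or TTCGAA, the cell cycle homology region of many mitotic genes, was in 13.2%, 14.9% and 14.1% in the same order. CAAAGT, part of the site of Hnf4a, a factor of the proximal tubule, was in 13.2%, 9.71% and 12.2%.

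Across whole classes of genes the directions split. Of the 70 lists, 29 had members called higher only, 14 lower only, 17 both ways and 10 neither way with edgeR, and no list median changed sign with RLE factors. Of 178 genes annotated to the extracellular matrix, 42 were called higher in every fit, and of 72 annotated to collagen trimers 18 were. Heparin binding, with 101 genes, had 17. In the fit of 6 samples these terms had 71, 30 and 28 genes called higher and 2, 3 and 1 called lower. Of those called, 54, 22 and 24 are outside the study's own list. These terms were chosen after their values were seen, out of 784 with at least 30 tested genes. Most long noncoding RNAs were not called, and those called leaned lower: 19 of 648 were lower in every fit and 2 higher, whereas of 14872 protein-coding genes 207 were lower and 237 higher. Gm12992, a long noncoding RNA, was higher, at 2.34, 2.03 and 1.26 CPM in wild type and 32.1, 29.1 and 31.5 CPM in mutants (log2 fold change 4.04, adjusted p = 0.000294). Dnm3os, a noncoding RNA that carries microRNAs of skeletal mesenchyme, was at 3.90, 4.27 and 5.67 CPM in wild type and 1.10, 1.76 and 1.70 CPM in mutants (log2 fold change -1.60, adjusted p = 0.00956), against the rise of other mesenchymal genes. Of the 105 tested genes on the study's own list of 107, which the study chose on these samples and which is thus not independent evidence, 69 were called. Outside those 105 genes 2102 were called. Dnm3os was chosen after its values were seen. Gm12992 (adjusted p = 0.166) was not called with 9 libraries alone.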

How the data were processed

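RNA was measured in whole embryonic kidneys. The authors deposited expected counts (raw reads per gene, with fractions, from an alignment to mouse build mm10) and log2 normalized values; the aligner and counting tool are not stated in the labels. Here the expected counts were rounded to whole numbers. Genes were kept by filterByExpr (minimum count 10, minimum total 15), scaled by TMM and tested in edgeR 4.0.16 (R 4.3.3) with the quasi-likelihood test and Benjamini-Hochberg adjustment over 15839 genes in 6 libraries of 36951252 to 42353534 reads. The code was tested on simulated counts. DESeq2 1.42.0, limma 3.58.1 on the deposited log2 values, other scaling, no filter, a minimum fold of 2, more libraries and leaving out each library were tried. Calls in every fit are a second count, chosen after the data were seen. The rule for genes to name gave 295, of which the text names 97 beside others marked as chosen after their values were seen. It took the 10 largest rises and falls at a mean of 2 CPM or more and the 10 most abundant called genes each way with a fold of 1.5 or more, both outside the study's list; from each of 70 gene lists the first 2 genes and the 3 called members that changed most; and the Hox9 to Hox11 genes, segment markers, called genes within 1 Mb of the mutated genes and sex genes. Members and lists were chosen with earlier results of these data known. Of entries that share a symbol, 396 with fewer reads were set apart. Tables and plots used Python 3.11.15, pandas 2.3.3, numpy 2.4.6 and matplotlib 3.10.9. The smallest exact two-sided permutation p for 3 against 3 is 0.1, so no such test was run. The other 6 samples of the series entered only alternatives and were otherwise not analysed here.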

Additional observations from a re-analysis of the deposited data

How the results depend on the processing

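The count of called genes moved with the tool and the samples more than with scaling. Against 2171 it was 3380 with DESeq2, 1215 with limma on the deposited values, 690 with 9 libraries of the run, 1190 with all 12 libraries (which also adds 3 kidneys of another run, heterozygous for the HoxA and homozygous for the HoxC mutations), 794 with 9 libraries and Xist as a covariate, and 507 with a fold of at least 2 as well. Leaving out 1 library gave 535 to 3386. It was 2144 with RLE factors and 2004 without the filter. With scaling by library size only it was 2391, of which 742 were higher and 1649 lower, so 31% of calls were higher against 46.0% with TMM. Of the 2171 calls, 14 had the opposite sign in the fit with Xist as a covariate. The cause of these shifts was not tested.

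Of 157 genes named in the text, 133 were called, and 118 of these were also called in each fit without 1 library. None of these reversed in the alternatives that fitted them; DESeq2 gave Hotair no adjusted p and so covers 1 gene fewer. Of the named genes 36 lost the call with 9 libraries of the run, 27 with Xist as a covariate, 18 with all 12 libraries, 6 with limma, 1 with scaling by library size only and 1 without the filter. Of 980 comparisons of list medians, 898 moved by less than the spread of the mutants and 82 by more. The medians of distal and connecting tubule genes and of p53 targets, like that of oxidative phosphorylation, changed sign with scaling by library size only, from 0.04 to -0.02 and from 0.02 to -0.04. The replicate numbers do not pair the samples. No paired analysis was possible because the groups share no replicate numbers. Low counts limit genes under about 1 CPM, where a few reads decide a value.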

Other observations

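Some of the steeper changes fell in genes with no set place in the kidney, each called in every fit and each chosen after its values were seen unless the rule named it. Slc4a3, an anion exchanger of heart and brain, was at 16.2, 16.6 and 19.6 CPM in wild type and 6.53, 5.66 and 6.76 CPM in mutants (log2 fold change -1.47, adjusted p = 0.00164), and Scn8a, a neuronal sodium channel 5 Mb or less from Hoxc10, was at 12.3, 11.1 and 14.1 CPM in wild type and 4.83, 3.34 and 5.93 CPM in mutants (log2 fold change -1.41, adjusted p = 0.00839). Nell2, a secreted guidance protein of neurons, was higher, at 18.7, 18.6 and 20.4 CPM in wild type and 69.0, 53.4 and 43.0 CPM in mutants (log2 fold change 1.52, adjusted p = 0.002998), and is also on the study's own list. Adcyap1r1, near Hoxa10, was at 2.23, 1.02 and 1.36 CPM in wild type and 4.44, 7.59 and 7.66 CPM in mutants (log2 fold change 2.10, adjusted p = 0.01005). D630044L22Rik, a noncoding RNA, had no reads in wild type and was at 1.15, 1.35 and 1.29 CPM in mutants 24, 27 and 29, and it lost its call with the 9 libraries of the run (adjusted p = 0.196) and with Xist as a covariate (adjusted p = 0.0677). Gm14150, a pseudogene whose reads could belong to a close copy, was at 0.106, 0.231 and 0.396 CPM in wild type and 7.28, 6.78 and 2.55 CPM in mutants (log2 fold change 4.48, adjusted p = 0.00442). No explanation of these was tested.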
